A study of Danio rerio with 3 samples.

Results

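The respiratory chain and ATP synthase subunits are the proteins of complexes I to V of the inner mitochondrial membrane. Their genes were chosen by RefSeq zebrafish symbol: nduf (complex I, without the ndufaf assembly factors), sdha, sdhb, sdhc, sdhda and sdhdb (complex II), uqcr and cyc1 (complex III), cox followed by 4 to 8 (complex IV) and atp5 (complex V). Of 98 RefSeq genes that met this rule, 71 had a named probe on the array, with 90 probes among the 43603 probes and 11668 named genes of the whole array. Complex I had 33 of its 43 genes on the array, complex II all 5, complex III 7 of 9, complex IV 12 of 21 and complex V 14 of 20. The test covered 53 of the 71 genes. Another 16 were left out because the scanner software had marked their spots on at least 1 array, and 2, ndufa12 and ndufs8b, were not well above background. No probe of these genes was saturated.

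The study compared MO-grnA morphant zebrafish embryos with untreated wild-type embryos, both at 22 hpf (hours post fertilization). MO-grnA is named for grna, the granulin A gene, which encodes a secreted growth factor related to mammalian progranulin. A morpholino is a synthetic antisense oligomer that blocks translation or splicing of its target RNA, and eggs at the 1-cell stage received 2 to 3 nl of it. Each of 3 arrays carried RNA of a morphant group and a wild-type group of 200 whole embryos each, labelled in opposite dyes, and the arrays were labelled biological replicates. Replicate 3 had the dyes swapped. The wild-type embryos are labelled as untreated, so an effect of injection and an effect of the morpholino cannot be told apart. The strain, the morpholino's sequence and a control morpholino are not given in the sources used here.

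Complexes I, III and IV pump protons across the inner membrane as electrons pass from NADH to oxygen, complex II feeds in electrons from succinate, and ATP synthase (complex V) uses the proton gradient to make ATP. Complexes I, III, IV and V have a catalytic core and a set of accessory subunits, and complex II a catalytic pair and a membrane anchor. Some subunits have copies or tissue isoforms, of which the heart and muscle forms of cytochrome oxidase in mammals are the best known. Part of the core of complexes I, III, IV and V is encoded in mitochondrial DNA. None of the genes on the list of mitochondrially encoded subunits matched a named probe, so all values below are of nuclear genes.

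All values are log2 ratios of morphant over wild type on each array after loess normalization, with the sign of the dye swap turned. Log2 intensities given for a channel were also quantile-normalized between arrays, which left the ratios unchanged. A gene is called higher or lower at an adjusted p under 0.05 in limma (Benjamini-Hochberg, 25065 tested probes). Only for such genes is "rose" or "fell" used. The probe with the highest mean intensity stands for a gene. The targeted gene grna had log2 ratios of 0.19, 0.34 and 0.39 on replicates 1, 2 and 3 (mean 0.31, SE 0.08, n = 3, limma adjusted p = 0.0227). Its RNA was thus called higher, not lower, in the morphants, and RNA level alone does not check a morpholino that blocks translation. The share of marked spots was 7.49% on replicate 1 and 0.915% and 0.909% on replicates 2 and 3. Replicate 1 was on a slide of its own, and replicates 2 and 3 shared the other slide.

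Most subunit genes were higher in the morphants by small amounts. Of the 53 tested genes 29 rose (54.7%) and 4 fell (7.5%), and 20 did not pass the test. Among all 9226 tested named genes, 19.3% were called higher and 22% lower. With a filter on both channels, which left out sdhda, 28 of 52 subunit genes were called higher, against 19.2% of all named genes. The median log2 ratio of the 53 genes was 0.41, 0.22 and 0.29 on replicates 1, 2 and 3, against -0.01, -0.01 and 0.01 for all named genes. The genes above 0 on every array numbered 41 of 53 (77.4%, against 33.9% of all named genes), 6 were below 0 on every array and 6 had mixed signs. Of the 20 that did not pass, 16 had a mean above 0. The median rise among the 29 was 0.38 and the smallest 0.30. A change of at least 2-fold was reached by 2 of the 29, ndufa1 and atp5pf, and 21 of the rises were under 0.5 log2 units. In whole embryos, a change in the number of cells of a type and a change in RNA per cell cannot be told apart.

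**Figure D1:**
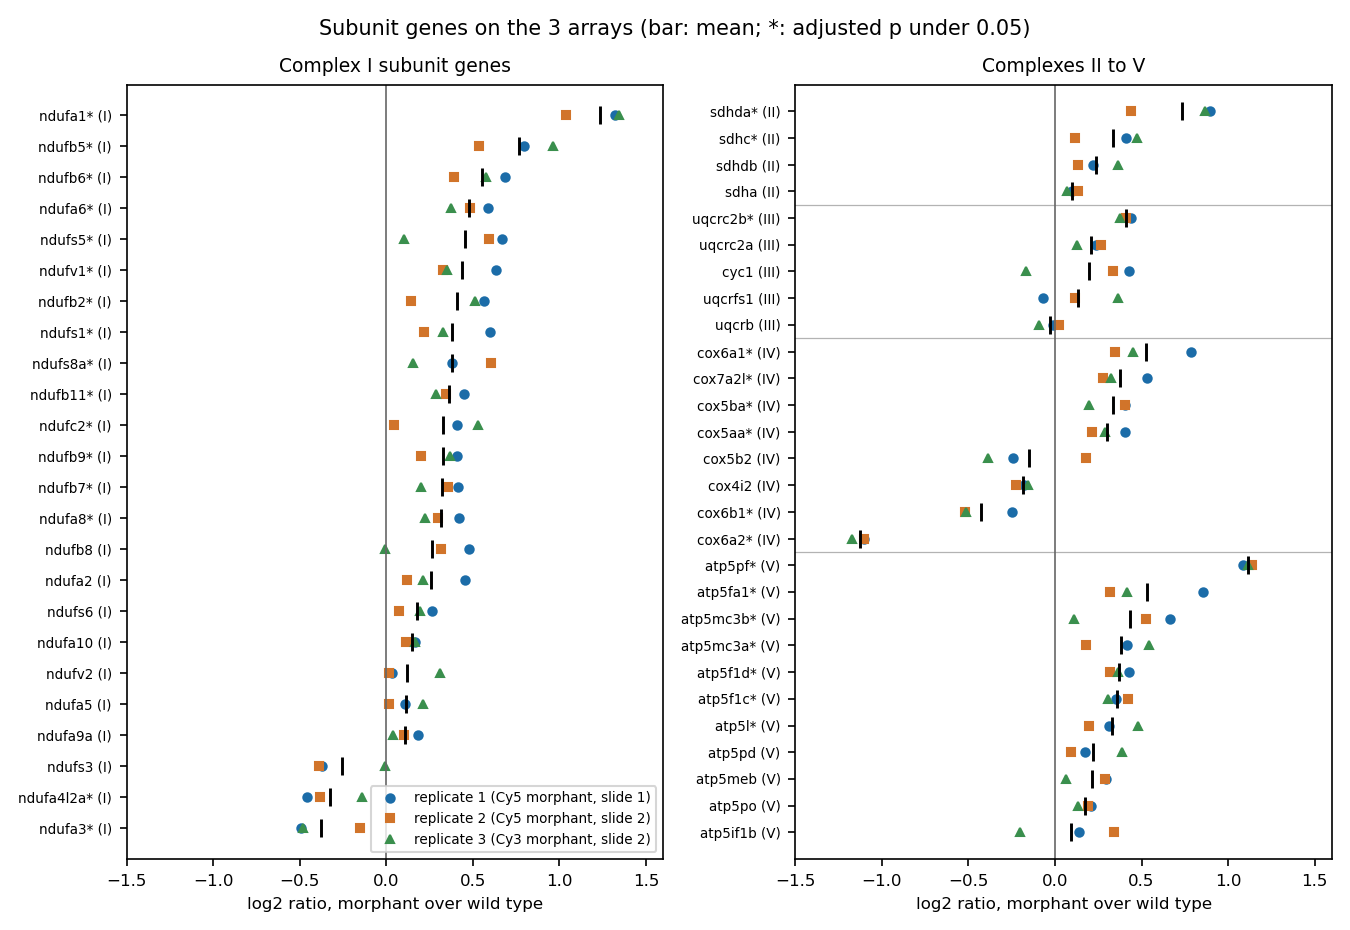
Log2 ratio of morphant over wild type (horizontal axis) for the tested subunit genes reported by name (vertical axis), with 1 point per array, a black bar for the mean and an asterisk for an adjusted p under 0.05. Most genes lie to the right of 0 on all 3 arrays, ndufa1 and atp5pf lie above 1 on each, and cox6a2 lies below -1 on each.

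The core subunits of complex I carry the flavin, the iron-sulphur clusters and the quinone site that take electrons from NADH to ubiquinone. Of 6 tested core genes 4 rose and none fell, with a median of 0.38. Ndufv1, the flavoprotein that binds NADH, rose by 0.44 (SE 0.09, n = 3, limma adjusted p = 0.0081), and its second probe gave 0.37. The iron-sulphur subunits ndufs1 and ndufs8a both rose by 0.38 (adjusted p = 0.0172 and 0.0213), with 0.60, 0.22 and 0.33 for ndufs1 on the 3 arrays. With marked spots kept, ndufs1 is represented by another, brighter probe at 0.11 (adjusted p = 0.341), its call ended without replicate 1 (0.27, adjusted p = 0.0517) and without replicate 3 (0.41, adjusted p = 0.0739), and that of ndufs8a ended without replicate 2 (0.27, adjusted p = 0.141). Ndufv2 and ndufs3 did not pass. Ndufv2 stood at 0.12, and ndufs3 was the core gene below 0, with ratios of -0.37, -0.39 and -0.00 (mean -0.25, adjusted p = 0.0819). Without the dye swap ndufs3 passed the test, at -0.38.

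The accessory subunits of complex I surround this core and are needed to assemble and hold it. Of 18 tested accessory genes 11 rose and 1 fell, with a median of 0.33. Ndufa1, a small membrane subunit required for assembly in mammals, had log2 intensities of 8.83, 8.35 and 8.47 in the morphant channel and 7.50, 7.31 and 7.13 in the wild-type channel. On these quantile-normalized intensities the channels did not overlap across arrays. Its ratios were 1.32, 1.04 and 1.34, with a mean of 1.24 (SE 0.09, n = 3, adjusted p = 5.56e-05), a 2.36-fold rise. The probe was dim, with a mean log2 intensity of 7.96 against a median of 14.4 for the tested subunit genes, and the scanner software's own deposited ratio, with another background subtraction, gave 1.94. The direction was the same in both, and the size was not.

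The ndufb genes encode subunits of the membrane arm, and 6 of the 7 tested rose. Ndufb5 had ratios of 0.80, 0.54 and 0.96 and a mean of 0.77 (SE 0.10, n = 3, adjusted p = 0.000844). For ndufb6 the ratios were 0.69, 0.39 and 0.58, with a mean of 0.55 (SE 0.09, n = 3, adjusted p = 0.00243). Replicate 2 was the lowest array for both genes. The rises of ndufb2, ndufb11, ndufb9 and ndufb7 were between 0.32 and 0.41. Ndufb8 had a mean of 0.26 (adjusted p = 0.0874), with -0.01 on the dye swap, and its second probe gave 0.17. Leaving out replicate 3 ended the calls of ndufb2 (0.35, adjusted p = 0.11) and ndufb9 (0.30, adjusted p = 0.0904), leaving out replicate 2 that of ndufb7 (0.31, adjusted p = 0.0938), and ndufb8 passed without replicate 3 (0.40).

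Among the other accessory genes, ndufa6, a subunit of the LYR protein family, rose by 0.48 (SE 0.08, n = 3, adjusted p = 0.00344), with every array above 0.3. Ndufs5 had 0.67, 0.59 and 0.10 and a mean of 0.46 (adjusted p = 0.0192), so its lowest value was on the dye swap, and leaving out replicate 2 ended its call (0.39, adjusted p = 0.0733). Ndufc2 and ndufa8 rose by 0.33 and 0.31. Both were near the threshold: the call of ndufc2 ended without replicate 1 (adjusted p = 0.0639) or replicate 3 (adjusted p = 0.224), and that of ndufa8 without any 1 of the 3 arrays (adjusted p = 0.0526 to 0.0798). Ndufa2 (0.26), ndufs6 (0.18), ndufa10 (0.15), ndufa5 (0.11) and ndufa9a (0.11) lay above 0 on every array without passing. A second ndufa5 probe, marked on replicate 1, gave 0.29 with marked spots kept and passed there (limma adjusted p = 0.0395).

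The complex I genes that fell were ndufa3, a membrane accessory subunit, and ndufa4l2a. Ndufa3 had ratios of -0.49, -0.15 and -0.48, with a mean of -0.38 (SE 0.10, n = 3, adjusted p = 0.0180). All arrays were below 0. Leaving out replicate 3 ended the call (-0.32, adjusted p = 0.111), and so did the deposited ratio (-0.36, limma adjusted p = 0.0543). Ndufa4l2a belongs to the NDUFA4 family. In mammals NDUFA4 was first assigned to complex I and later found in cytochrome oxidase, and human NDUFA4L2 is a target of the hypoxia-inducible factor. The ratios of ndufa4l2a were -0.46, -0.38 and -0.14 (mean -0.33, SE 0.09, n = 3, adjusted p = 0.0260). Its call ended without replicate 1 (-0.26, adjusted p = 0.0695) and without replicate 2 (-0.30, adjusted p = 0.114).

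Complex II, succinate dehydrogenase, is also an enzyme of the citrate cycle and has a catalytic pair and a membrane anchor. All 4 tested genes were above 0 on every array, and 2 of them, both of the anchor, rose. Sdhda had ratios of 0.90, 0.44 and 0.87 (mean 0.73, SE 0.11, n = 3, adjusted p = 0.00152). Its probe was the dimmest of the tested subunit genes called, with a mean log2 intensity of 6.89, and stood at 1.96 by the deposited ratio. In the wild-type channel it was well above background on 2 of 3 arrays, so it was tested only through the morphant channel, where it was high. A filter on both channels left it out, and its call gives no support to the count for complex II. Sdhc had 0.41, 0.12 and 0.48 (mean 0.34, SE 0.10, n = 3, adjusted p = 0.0276), and a second probe gave 0.27 (adjusted p = 0.0892). Without replicate 3 the call of sdhc ended (0.26, adjusted p = 0.148). Sdhdb, the other copy of the subunit D gene, did not pass, with 0.22, 0.13 and 0.36 (mean 0.24, SE 0.09, n = 3, adjusted p = 0.0594). The log2 ratio of sdhda exceeded that of sdhdb by 0.68, 0.30 and 0.50 on the 3 arrays, and by 1.67 with the deposited ratio, so the size of this difference is not settled. The catalytic flavoprotein gene sdha had 0.10, 0.13 and 0.07 (mean 0.10, SE 0.08, n = 3, adjusted p = 0.348), with a 95% interval from -0.08 to 0.28 by its brightest probe. Its other 2 tested probes gave 0.26 and 0.33 and both passed (adjusted p = 0.0372 and 0.0311), so the call for sdha depends on the probe. Another sdha probe, marked on replicate 1, gave 0.34 with marked spots kept (limma adjusted p = 0.0137).

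Complex III passes electrons from ubiquinol to cytochrome c. Of 5 tested genes 1 rose (20%, near the 19.3% of all named genes) and none fell, with a median of 0.20. Uqcrc2b, a copy of the gene for core protein 2, had ratios of 0.44, 0.41 and 0.37 (mean 0.41, SE 0.08, n = 3, adjusted p = 0.00531), with little spread between arrays. The other copy, uqcrc2a, stood at 0.21 (adjusted p = 0.0764) by its brightest probe. By that probe it lay below uqcrc2b on every array, by 0.20 ± 0.05 on the log2 scale (SD, n = 3). A second uqcrc2a probe, marked on replicate 1, gave 0.29 and 0.41 on replicates 2 and 3. With marked spots kept it stood at 0.40 (limma adjusted p = 0.0103), beside 0.39 for uqcrc2b. The call of uqcrc2a and the difference between the copies thus depend on the probe. The redox subunits did not pass. The gene for cytochrome c1, cyc1, had 0.42 and 0.34 on replicates 1 and 2 and -0.17 on the dye swap (mean 0.20, adjusted p = 0.235), and without the dye swap it passed at 0.38. The Rieske iron-sulphur gene uqcrfs1 stood at 0.14, and uqcrb, a small subunit near the quinone site, at -0.03, with a 95% interval from -0.21 to 0.16.

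Complex IV, cytochrome c oxidase, hands electrons to oxygen. Of its 8 tested genes 4 rose and 2 fell, with a range from -1.12 to 0.53. Among all named genes 19.3% were called higher and 22% lower, so the share that fell was near that of all genes. Cox6a2, the heart and skeletal muscle isoform of subunit 6A in mammals, had log2 intensities of 7.72, 8.18 and 8.31 in the morphant channel and 8.82, 9.28 and 9.48 in the wild-type channel. After the quantile normalization between arrays, every morphant value lay below every wild-type value. The ratios were -1.10, -1.10 and -1.17 (mean -1.12, SE 0.08, n = 3, adjusted p = 4.24e-05), so the wild type was 2.18-fold higher. Cox6a1, the isoform found in most tissues of mammals, went the other way, with log2 intensities of 15.62, 15.28 and 15.40 in the morphant channel and 14.84, 14.93 and 14.95 in the wild type. Its ratios of 0.78, 0.35 and 0.45 gave a mean of 0.53 (SE 0.10, n = 3, adjusted p = 0.00546). The difference between the log2 ratios of cox6a1 and cox6a2 was 1.89, 1.45 and 1.62 on the 3 arrays (1.65 ± 0.22, SD, n = 3), a 3.14-fold change of one isoform relative to the other. Among the 5 pairs of copies or isoforms measured, this difference was the largest. The cox6a2 probe was dim, with a mean log2 intensity of 8.60. By the deposited ratio cox6a2 stood at -1.39 and cox6a1 at 0.50, so the direction held and the size is not settled.

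The remaining rises in complex IV were of cox7a2l, cox5ba and cox5aa. Cox7a2l, named for its likeness to subunit 7A, is known in mammals as a factor that joins complexes III and IV into supercomplexes. It had 0.53, 0.28 and 0.32 (mean 0.38, SE 0.09, n = 3, adjusted p = 0.0117). Cox5ba and cox5aa encode subunits on the matrix side. The ratios of cox5ba were 0.41, 0.41 and 0.20 (mean 0.34, SE 0.09, n = 3, adjusted p = 0.0172), and those of cox5aa were 0.40, 0.21 and 0.29 (mean 0.30, SE 0.08, n = 3, adjusted p = 0.0237). These calls were close to the threshold: that of cox5aa ended without any 1 of the arrays (adjusted p = 0.0583 to 0.0846), that of cox5ba without replicate 2 (adjusted p = 0.0986) and that of cox7a2l without replicate 3 (adjusted p = 0.0524).

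Cox6b1, which sits on the intermembrane-space side where the enzyme dimerizes, fell, with -0.25, -0.52 and -0.51 (mean -0.43, SE 0.09, n = 3, adjusted p = 0.0078). Without replicate 3 its value was -0.38 (adjusted p = 0.0615). Cox5b2, another gene of subunit 5B, had -0.24, 0.18 and -0.39 (mean -0.15, SE 0.12, n = 3, adjusted p = 0.338) and lay below cox5ba on each array, by 0.49 ± 0.23 (SD, n = 3) on average. Cox4i2, in mammals the isoform of subunit 4 tied to low oxygen, had -0.18, -0.23 and -0.16 (mean -0.19, SE 0.08, n = 3, adjusted p = 0.098). It was below 0 on every array and did not pass. The common isoform gene cox4i1 had marked spots on replicates 2 and 3 and was not tested; with those spots kept it stood at 0.24 (adjusted p = 0.0569).

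In complex V 7 of 11 tested genes rose and none fell, with a median of 0.36. The c ring in the membrane turns as protons pass it, and a peripheral stalk holds the catalytic F1 head still. Atp5pf, the coupling factor 6 subunit of that stalk, had log2 intensities of 12.41, 12.17 and 12.24 in the morphant channel and 11.32, 11.03 and 11.12 in the wild type. Its ratios of 1.09, 1.14 and 1.12 (mean 1.11, SE 0.08, n = 3, adjusted p = 4.31e-05) correspond to a 2.16-fold rise and differ little between arrays. The other stalk genes, atp5pd (0.22) and atp5po, the OSCP subunit (0.18), were above 0 on every array and did not pass, so the size of the atp5pf change was not shared by the stalk genes tested with it.

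All 3 tested genes of F1, the part with the catalytic head, rose. Another F1 gene, atp5f1b, was left out of the test for a marked spot. With marked spots kept it had 0.40, 0.15 and 0.02 and did not pass (mean 0.19, limma adjusted p = 0.166). The alpha subunit gene atp5fa1 had 0.86, 0.32 and 0.42 (mean 0.53, SE 0.11, n = 3, adjusted p = 0.0085), and with marked spots kept another, brighter probe gave 0.29 (adjusted p = 0.0372). Atp5f1d, the delta subunit, rose by 0.37 and atp5f1c, the gamma subunit, by 0.36 (adjusted p = 0.0087 and 0.0098). Second probes gave 0.18 for atp5f1d, which did not pass (adjusted p = 0.108), and 0.46 for atp5f1c, which did. That call of atp5f1c by its brightest probe ended without replicate 2 (0.33, adjusted p = 0.0672). Both tested c ring genes rose. Atp5mc3b had 0.67, 0.53 and 0.11 (mean 0.43, SE 0.12, n = 3, adjusted p = 0.0207), and atp5mc3a had 0.41, 0.18 and 0.54 (mean 0.38, SE 0.09, n = 3, adjusted p = 0.0160). The copies did not differ beyond the spread of the arrays (atp5mc3a minus atp5mc3b, -0.05 ± 0.43, SD, n = 3). The call of atp5mc3b ended without replicate 2 (0.39, adjusted p = 0.0725) and that of atp5mc3a without replicate 3 (0.30, adjusted p = 0.101).

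Of the small membrane subunits, atp5l (subunit g) rose by 0.33 (adjusted p = 0.0217), a call that ended without replicate 3 (0.25, adjusted p = 0.115). Atp5meb (subunit e) had 0.22 by its brightest probe and 0.58 by its second, which passed (adjusted p = 0.0881 and 0.00118). The inhibitor gene atp5if1b, whose product stops ATP synthase from running backwards, stood at 0.14, 0.34 and -0.20 (mean 0.09, SE 0.11, n = 3, adjusted p = 0.544). Its arrays lay on both sides of 0.

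Across complexes, the median log2 ratio on replicates 1, 2 and 3 was 0.42, 0.22 and 0.23 for complex I, 0.31, 0.13 and 0.42 for complex II and 0.24, 0.26 and 0.13 for complex III. It was 0.11, 0.20 and 0.02 for complex IV and 0.35, 0.32 and 0.36 for complex V. With the genes assigned by symbol these medians were above 0, and complex V varied least between arrays. The complex II medians include sdhda. Over the arrays the complex II median was 0.29, and 0.24 with the filter on both channels, which left sdhda out. After loess, complex IV had a lower median than complexes I, III and V on each array. The gaps were 0.02 to 0.31, 0.07 to 0.13 and 0.12 to 0.34. Complex III had a lower median than complex V on each array, by 0.06 to 0.24. The other 6 pairs of complexes did not keep one order. After median centring, complex IV did not lie below complex III on replicate 3. By calls, the share higher was 60% in complex I, 50% in complexes II (with sdhda) and IV, 20% in complex III and 63.6% in complex V. Among all named genes it was 19.3%. Subunits are not replicates, and 3 arrays allow no sign-flip p under 0.25, so these differences carry no test. The position of complex IV also rests on which genes were tested: over the arrays its median was 0.08, and with marked spots kept, which brings in more cox genes, it was 0.25. It was -0.15 for the 7 nuclear subunits without cox7a2l (-0.18, 0.18 and -0.16 by array), and also when ndufa4l2a was counted with complex IV, an alternative chosen after seeing the data.

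**Figure D2:**
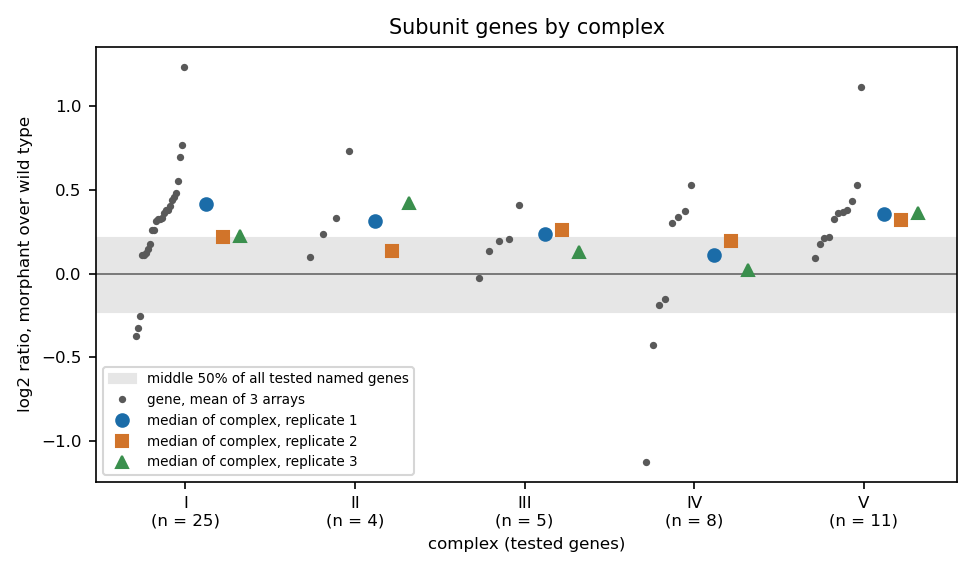
Log2 ratio of morphant over wild type (vertical axis) by complex (horizontal axis, with the number of tested genes), with grey points for the mean of each gene over 3 arrays, coloured points for the median of the complex on each array, and a grey band for the middle 50% of all tested named genes, from -0.23 to 0.21. With genes assigned by symbol the medians lie above 0 for every complex. The genes of complex IV run from -1.12 to 0.53 and those of complex I from -0.38 to 1.24.

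The 16 genes left out for marked spots were examined with those spots kept. Then 5 passed as higher, namely uqcrq (0.55), ndufa7 (0.43), cox7c (0.32), atp5pb (0.28) and cox6b2 (0.26), and 1 as lower, ndufb10 at -0.79. In that fit 18.5% of all named genes were called higher and 21.8% lower. Ndufb10 was low on each array by this probe (-0.90, -0.61 and -0.87), while its other probe gave -0.17 (adjusted p = 0.148). The median of the 16 was 0.20 and 13 of them lay above 0. Member probes were marked more often than others: 29.5% of those that passed the filter on dim probes were left out for marks, against 12.6% of all such probes. Ndufa12, well above background on 2 of 3 arrays in each channel, had -0.16, -0.16 and -0.13.

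Several tested probes were available for 8 of the genes, and the mean of every such probe was above 0. Probes of a gene differed by up to 0.36, the largest gap being that of atp5meb, and for 4 of the 8, atp5f1d, atp5meb, sdha and sdhc, the probes fell on both sides of the threshold.

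Other nuclear genes of the mitochondrial machinery were examined in the same fit, as lists. Assembly factors of complexes II to V had 15 of 28 tested genes higher and 2 lower, with a median of 0.26. Uqcc6, a complex III assembly factor in mammals, rose by 1.23 (adjusted p = 3.07e-05) and sdhaf2, which helps attach the flavin to SDHA, by 0.90 (adjusted p = 0.000135), whereas sdhaf4, another complex II factor, fell by 1.34 (adjusted p = 2.49e-05). Sdhaf4 had -1.44, -1.33 and -1.23 on the 3 arrays, and its second probe gave -0.86. Of 9 complex I assembly factors 3 rose and none fell (median 0.15), namely acad9 (0.69), foxred1 (0.52) and tmem126a (0.28). Mitochondrial protein import had 9 of 28 higher and 3 lower (median 0.14), with gfer at -0.74, tomm5 at 0.67 and dnajc19 at -0.46, though a second tomm5 probe gave 0.16.

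Cytochrome c, coenzyme Q synthesis and metabolite carriers had 6 of 19 higher and 5 lower (median 0.08). The largest called changes there were vdac1 (-0.65), an outer membrane channel, ucp1 (-0.61, with a second probe at -0.17) and coq9 (0.57), a coenzyme Q synthesis factor. Regulators of mitochondrial transcription and biogenesis had 3 of 15 higher and 4 lower, with a median of -0.06. Among them tfb2m, a mitochondrial transcription factor, rose by 0.68, and nrf1 and gabpb2a, whose products act on promoters of many respiratory chain genes in mammals, fell by 0.64 and 0.67. Tfam, the main mitochondrial DNA packaging factor, was at -0.01 (adjusted p = 0.91). The shares called higher were thus 53.6% for the assembly factors of complexes II to V and between 20% and 33.3% for the other lists in these 2 paragraphs, against 19.3% of all named genes. The 5 of 19 and 4 of 15 genes called lower in this paragraph were near the 22% of all named genes.

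Muscle is rich in mitochondria, so marker genes of tissues in the embryo are given beside these values. Of 13 tested striated muscle markers 9 rose (69.2%) and none fell, beside 19.3% of all named genes called higher and 22% lower. Tnnt3a (-0.15) and tnnt3b (-0.05) had means below 0 and did not pass. The median of the muscle markers was 0.62, 0.31 and 0.38 on replicates 1, 2 and 3. These array medians had the same order as those of the subunit genes, with replicate 1 highest and replicate 2 lowest, as did those of the heart markers (0.36, 0.02 and 0.19). Replicate 2 was also the lowest for the neural and yolk markers, whereas replicate 3 was the lowest for the blood markers (0.30, 0.24 and 0.12). Acta1a rose by 1.18 (1.87, 0.60 and 1.06) and acta1b by 0.77, although a second acta1b probe fell by 0.41, and smyhc1 rose by 0.60 with a second probe at -0.20. Of the muscle markers on the array ryr1b was not above background. Heart markers had 1 of 3 higher (median 0.25), neural markers 2 of 7 higher and 1 lower (0.10), blood markers 2 of 3 higher (0.36) and yolk syncytial layer markers 1 of 2 higher (0.46). The neural share called higher was 28.6%, against 19.3% of all named genes, and the heart, blood and yolk lists are too short for a share to be read. In the heart list nppa and in the yolk list apoa1b were not above background. The part of tissue make-up in the subunit values was not tested.

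Subunit probes were bright, with a median log2 intensity of 14.4 against 10.97 for all tested named genes, of which 10.7% were brighter than the median subunit gene. The brightest 11 subunit genes, at 15.5 and above, had medians of 0.40, 0.32 and 0.13 on the 3 arrays, and the dye swap was the lowest array in 8 of the 11. In the same range all 269 named genes had medians of 0.09, 0.10 and 0.01, and the dye swap was the lowest array in 139 of them. After loess, the bright subunit genes had higher medians than all named genes of that range on every array, with a smaller gap on the dye swap. The part of brightness and dye in the subunit values was not tested. With a dye term in the fit, 23 subunit genes were called higher and 3 lower, against 14.6% and 17.2% of all named genes.

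**Figure D3:**
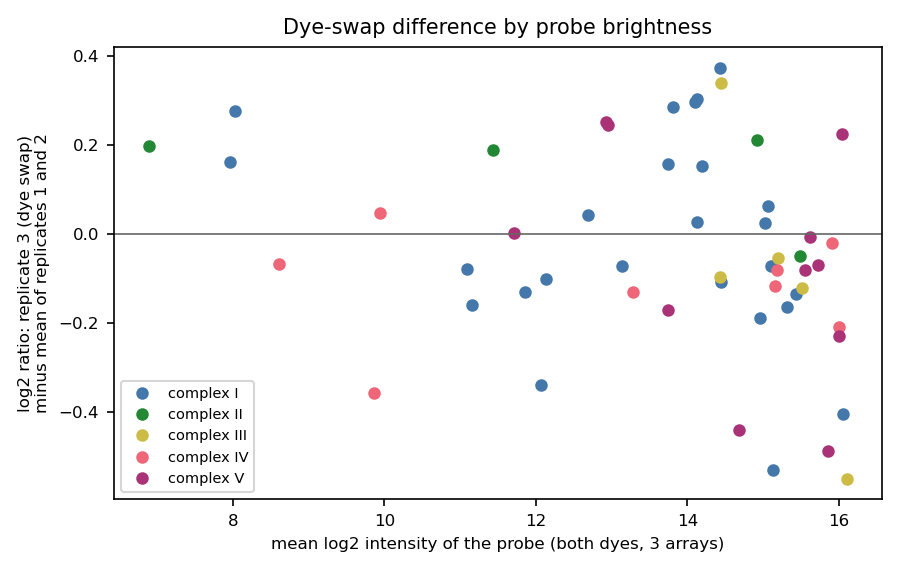
Log2 ratio on the dye swap minus the mean of replicates 1 and 2 (vertical axis) against the mean log2 intensity of the probe (horizontal axis), with 1 point per tested subunit gene coloured by complex. Most points above 15.5 lie below 0, and points at lower intensity lie on both sides.

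The call counts depended on how the arrays were scaled, and so did the difference from other genes on each array. After median centring in place of loess, the subunit medians were 1.13, 0.75 and -0.33 on replicates 1, 2 and 3, and the medians of all named genes moved with them to 0.47, 0.29 and -0.37. The median over all named genes shifted to 0.13 and that of the subunit genes to 0.54, so the subunit genes stood 0.40 above all genes, where their median after loess was 0.32. Array by array, the gap between subunit genes and all genes was 0.42, 0.22 and 0.28 after loess and 0.66, 0.46 and 0.04 after median centring, so on the dye swap little of it was left. The spread between arrays grew, however, and 2 genes (ndufa1 and atp5pf) passed as higher and 0 as lower in limma. Among all named genes 1.54% and 1.33% were called higher and lower at an adjusted p under 0.05 in that fit. At an unadjusted p under 0.05 there were 8 subunit genes higher and 1 lower. The share of all named genes at that unadjusted threshold was not counted, so these 2 counts have no background beside them. Cox6a2 stood at -1.01 there (adjusted p = 0.0647). The other lists lost their calls as well. In the assembly factors of complexes II to V, uqcc6 passed as higher and sdhaf4 as lower, and of the muscle markers 0 passed in limma (4 were higher at an unadjusted p under 0.05). With the deposited ratio of the scanner software the medians were 0.35, 0.23 and 0.25, close to those after loess. In that fit 21 genes were higher and 3 lower (18.1% and 19.5% of all named genes). The calls lost there were those of ndufa3, ndufa8, ndufc2, ndufs5, sdhc, cox5aa, cox5ba, atp5l and atp5mc3b.

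**Figure D4:**
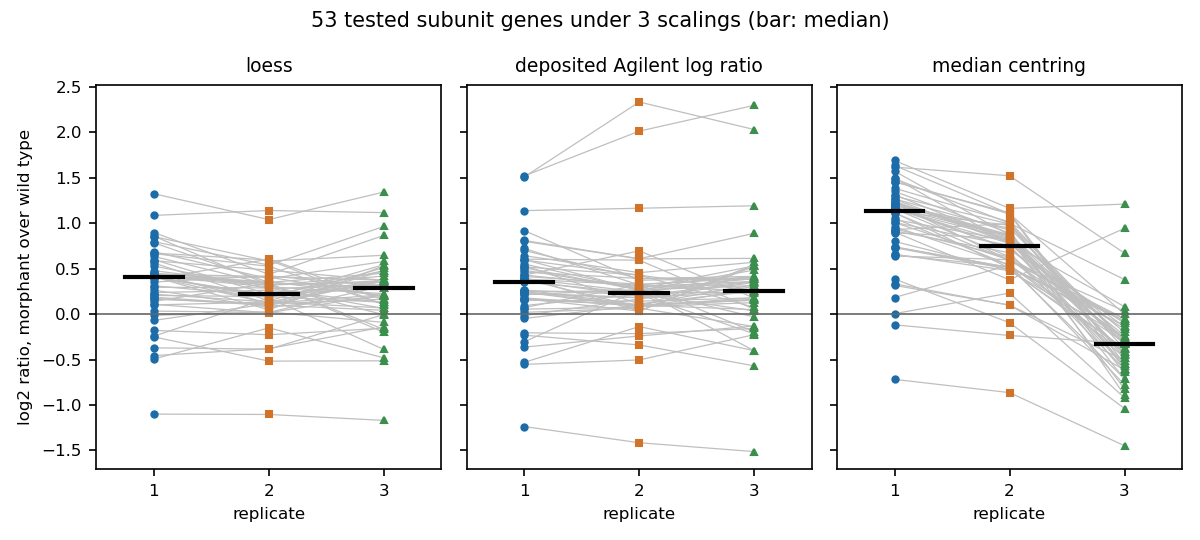
Log2 ratio of morphant over wild type (vertical axis) of the 53 tested subunit genes on replicates 1, 2 and 3 (horizontal axis) under loess, median centring and the deposited scanner ratio, with 1 point per gene and a bar for the median. The median stays between 0.22 and 0.41 under loess and the deposited ratio, and runs from 1.13 to -0.33 under median centring.

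With 1 array left out the number of genes called higher was 25 without replicate 1, 21 without replicate 2 and 21 without replicate 3, beside 17.2%, 14% and 11.8% of all named genes. Of the 29 genes called from all arrays, 25, 21 and 19 were still called higher in those fits. Of the 4 that fell, cox6a2 passed in each. Outside median centring, 14 called genes passed under all other 12 alternatives that could test them. They included ndufa1, ndufa6, ndufb5, ndufb6, ndufb11 and ndufv1 of complex I, uqcrc2b of complex III, cox6a1 and cox6a2 of complex IV, and atp5f1d, atp5fa1 and atp5pf of complex V. Sdhda of complex II is counted in the 14, but the filter on both channels left it out, so its place there gives no support. Replicate 3 is the array with the dyes swapped, so the fit without it holds 1 dye orientation.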

How the data were processed

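RNA of 22 hpf morphant and wild-type zebrafish embryos was measured on 3 Agilent arrays with 2 colours, labelled biological replicates (replicate 3 with swapped dyes). Per the file headers, spots were read with Agilent Feature Extraction 10.5.1.1, while the submitters' processing notes name 8.5.1.1. The deposited files give median spot and background intensity for each dye, and the authors' log10 ratio of red over green, made by that software from background-subtracted, dye-normalized signals. The deposited value table held the same log10 ratios with the dye swap turned. Per the file headers the annotation was of build danRer5, so no coordinates are given. Probes were named through their accession in a RefSeq table of assembly GRCz12tu (16770 probes, 11668 symbols), and the others stayed unnamed.

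In R 4.3.3 with limma 3.58.1, the intensities were corrected by normexp (offset 50) and normalized by loess within arrays. For the channel intensities only, average intensities were then quantile-normalized between arrays (limma Aquantile). Control and marked spots (non-uniform, population outlier or manual) had weight 0, and spots of a probe were averaged. Tested probes (25065) were unmarked on each array and well above background in 1 of the channels, morphant or wild type, on all 3. Ratios were fitted with lmFit and eBayes against 0, two-sided, with Benjamini-Hochberg adjustment over these probes. The number of arrays limits the precision, since a probe alone has 2 residual degrees of freedom. The fit was tested on simulated data.

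Genes given with array values are, by rule, the 4 largest called rises and every called fall of each complex, all complex II genes, isoform pairs, and probes of a gene that differ by over 0.5. A called gene that the rule takes is not reported here by name, though counts and medians include it. Further genes are named for their role or their dependence on an array. The members, the 11 lists and these rules were chosen with earlier results of these data known, and list counts are descriptions. Alternatives covered background, scaling, filters, marks, dye, slide, probes and left-out arrays. A planned promoter motif search and a protein comparison were not run, since no sequences were at hand.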

Additional observations from a re-analysis of the deposited data

How the results depend on the processing

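The number of subunit genes called higher, 29, and lower, 4, changed by over 1.5 times under median centring alone, to 2 and 0 (8 and 1 at an unadjusted p under 0.05). Over the other 12 alternatives it lay between 21 and 34 for higher and between 3 and 5 for lower. With slide as a block the counts were 34 and 5, where 24.5% and 26.4% of all named genes were called higher and lower. Medians by complex under median centring were 0.54 for complex I, 0.47 for complex II, 0.43 for complex III, 0.26 for complex IV and 0.57 for complex V, beside a shift of all named genes to 0.13. With marked spots kept, complex IV stood at 0.25 and complex V at 0.28, where more genes and for some genes other probes enter. The median of complex V was 0.33 with the deposited log ratio and between 0.30 and 0.39 with 1 array left out. Counting ndufa4l2a with cytochrome oxidase, an alternative chosen after seeing the data, turned the complex IV median to -0.15. Of the 23 tested genes that the rule for array values takes, sdha, sdhdb, cox4i2 and cox5b2 had no call to lose. Among the others, 17 lost their call under median centring, 2 with a dye term and 5 with the deposited ratio. Without replicates 1, 2 and 3 the losses were 2, 4 and 6. With slide as a block sdhdb gained a call, as did ndufa2, ndufb8, cyc1, atp5meb and ndufs3 outside the 23. None of the 23 changed direction in any alternative that tested it. Outside them, atp5if1b (0.09) turned to -0.03 without replicate 2, and uqcrb (-0.03) to 0.15 under median centring. The cause of these changes was not tested. The main fit already pairs both RNAs within an array, so no further block for pairing applies. Dim probes such as ndufa1, sdhda and cox6a2 have a size that depends on the background treatment.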
